A study of Mus musculus with 6 samples.

Results

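The genes described here are 4 known targets of the aryl hydrocarbon receptor (AHR), Cyp1b1, Tiparp, Nqo1 and Lpcat2, and 4 genes for proteins that work with the receptor, Arnt, Hsp90ab1, Hsp90aa1 and Ptges3. They were chosen by symbol, with earlier results of these data known, from the 24454 gene symbols of the deposited count table. All 8 were found. RNA was sequenced from cultured peritoneal macrophages, the resident phagocytes of the abdominal cavity, taken from wild-type male C57BL6/J mice of 6 to 8 weeks. The 6 libraries form 3 groups of 2: vehicle for 5 h, the bacterial endotoxin LPS at 10 ng/ml for 4 h, and the AHR ligand SGA360 at 10 µM for 1 h followed by the same LPS dose and time, here called SGA360+LPS. No SGA360 without LPS is among these libraries, and the labels name no solvent pretreatment for the LPS group. The labels do not tell whether paired libraries of a treatment are different mice or cultures, and the p-values rest on a spread between samples that may be technical.

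AHR is a transcription factor that waits in the cytosol in a complex with the chaperone HSP90 and the co-chaperone p23, the product of Ptges3. A ligand sends it to the nucleus, where it pairs with ARNT and binds the xenobiotic response element (XRE), whose core is GCGTG. Genes of xenobiotic metabolism such as Cyp1a1, Cyp1b1 and Nqo1, and the feedback genes Ahrr and Tiparp, are its classical targets. SGA360 is known as a selective AHR modulator, a kind of ligand studied for dampening inflammatory genes.

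The windows around the start sites of the 4 targets are shown because XRE cores are the letters through which AHR and ARNT meet DNA. Each runs from 250 bases before to 50 bases after the start site (RefSeq, GRCm38.p6), 5′ to 3′ in the direction of the gene, and capitals mark GCGTG or its reverse complement CACGC.
Cyp1b1, chr17:79715012-79715311, minus strand: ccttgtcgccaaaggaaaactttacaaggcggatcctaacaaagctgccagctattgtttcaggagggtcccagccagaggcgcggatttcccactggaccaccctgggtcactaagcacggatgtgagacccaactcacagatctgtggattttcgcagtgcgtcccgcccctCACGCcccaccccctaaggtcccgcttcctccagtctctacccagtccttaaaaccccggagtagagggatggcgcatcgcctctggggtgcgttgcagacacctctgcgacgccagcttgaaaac
Tiparp, chr3:65528197-65528496, plus strand: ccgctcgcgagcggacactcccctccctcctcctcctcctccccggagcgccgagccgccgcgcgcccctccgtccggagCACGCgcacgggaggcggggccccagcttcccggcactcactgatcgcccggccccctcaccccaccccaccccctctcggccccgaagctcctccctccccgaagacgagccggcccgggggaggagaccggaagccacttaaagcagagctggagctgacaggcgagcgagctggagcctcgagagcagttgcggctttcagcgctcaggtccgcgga
Nqo1, chr8:107403156-107403455, minus strand: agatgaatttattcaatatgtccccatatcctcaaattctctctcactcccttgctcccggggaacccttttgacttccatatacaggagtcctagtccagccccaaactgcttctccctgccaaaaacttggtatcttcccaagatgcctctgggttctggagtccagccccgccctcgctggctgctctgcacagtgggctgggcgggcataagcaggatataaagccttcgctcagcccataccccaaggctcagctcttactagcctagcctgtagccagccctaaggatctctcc
Lpcat2, chr8:92855083-92855382, plus strand: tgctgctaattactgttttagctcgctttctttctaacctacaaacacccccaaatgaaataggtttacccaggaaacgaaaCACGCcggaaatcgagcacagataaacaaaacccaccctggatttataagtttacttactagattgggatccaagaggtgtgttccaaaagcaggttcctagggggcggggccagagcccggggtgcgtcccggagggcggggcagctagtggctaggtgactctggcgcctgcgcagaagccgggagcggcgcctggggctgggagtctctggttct
Cyp1b1 held 1 core, beginning at position -76 from the start site. Tiparp held 1 at -170 and Lpcat2 1 at -168, each read on the opposite strand, as for Cyp1b1. The Nqo1 window had 0. Bases outside these windows were not searched, so an absence holds for the window only. Of the members, 6 of 8 were matched by symbol (not Hsp90ab1 or Hsp90aa1), and beyond the targets the Arnt window held 1 core and that of Ptges3 held 2. A GCGTG on either strand occurred in 32.4% of 32851 such windows, so these matches describe the letters and no more. The longer form TNGCGTG, which contains the core, was in 0 of the 6 member windows and in 5.07% of all. The core antioxidant response element TGACNNNGC (12.4% of all windows) was matched in Arnt and Ptges3 among the 6, and the heat shock element letters GAANNTTC (7.86%) and TTCNNGAA (8.52%) and the NF-kB consensus (4.51%) in none of them.

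The libraries held 7726973 to 9529817 counts. Vehicle replicate 1 stood apart, with reads for 10001 symbols where the other 5 libraries covered 12282 to 12643. Ribosomal RNA (Rn45s) made up 4.92% of that library and 0.22% to 0.684% of the others, and the vehicle libraries correlated at 0.971 over genes in log2 CPM, against 0.993 and 0.994 within the treated groups. All comparisons with vehicle use this library, and without it the members called with LPS numbered 6. The part of RNA quality in the vehicle values was not tested. Macrophage genes were abundant, with Lyz2, encoding lysozyme, at 19763 ± 1199.6 CPM in vehicle (SD, n = 2), while Itgam, a gene with 2 transcript rows, was listed at 0. Of 8 tested macrophage markers 2 rose with LPS (Cd14 by 2.98 and Adgre1 by 1.30 on the log2 scale) and 4 fell (log2 fold change -2.39 for Fcgr1, -2.14 for Mertk, -0.48 for Gata6 and -0.34 for Csf1r). Over all tested genes 19.4% were called higher with LPS and 17% lower. CPM are counts divided by TMM-scaled library size, to a common total. Markers of other cells were measured too. The summed level of 8 fibroblast markers was nearly all Col1a1, Col1a2 and Col3a1. It was 4686 to 5381 CPM in vehicle, 4420 to 4727 with LPS and 4740 to 5209 with SGA360+LPS. The summed level of 9 mesothelial markers was 491 to 517, 352 to 354 and 346 to 365 CPM. The B cell markers summed to 29.0 to 33.3 CPM over the libraries, those of mast cells to 75.2 to 90.2, of T and NK cells to 1.53 to 6.15 and of neutrophils to 4.69 to 16.2. Among these lists Pdgfrb, Gpm6a, Cd79b, Ebf1, Cd8a, Kit, S100a9 and Ly6g were at 0 in every library. All but Ly6g, which has 1 row, have several transcript rows and may be undercounted, as may the sums they enter.

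Of the 8 genes, 7 had enough counts to be tested, and all of these but 2 rose with LPS. Lpcat2 and Cyp1b1 rose 4.34-fold and 2.20-fold, and the chaperone genes Hsp90aa1, Ptges3 and Hsp90ab1 rose 1.44-, 1.42- and 1.31-fold. Tiparp and Nqo1 were not called. These 5 rises and 0 falls stand beside a background of 19.4% of 9389 tested genes called higher, 17% lower and 36.4% in either direction (edgeR's quasi-likelihood test, Benjamini-Hochberg adjusted p under 0.05). Upper-quartile scaling changed the split of all calls from 1820 higher and 1593 lower to 1460 and 1983, and called the same number of members, 5. The median log2 fold change of the 7 was 0.53, against -0.0084 over all tested genes. As the members were chosen with earlier results of these data known, neither contrast tests AHR genes as a set. With SGA360+LPS against LPS, 1 member was called, Cyp1b1, which fell, where 0.0746% of tested genes were called, all 7 of them lower. In the main edgeR fit no gene was called higher there (0%), with 276 genes in either direction at an unadjusted p under 0.05. DESeq2 called 1 gene higher and limma-voom 0. With other settings edgeR called 2 higher with no filter on low counts and 1 in a fit on these 2 groups alone. It called 0 higher in each other edgeR fit on all 6 libraries. With SGA360+LPS against vehicle 5 members were higher and 0 lower, beside a background of 17.9% called higher, 15.2% lower and 33.1% in either direction. These comparisons share libraries, so their results are not independent of each other.

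**Figure D1:**
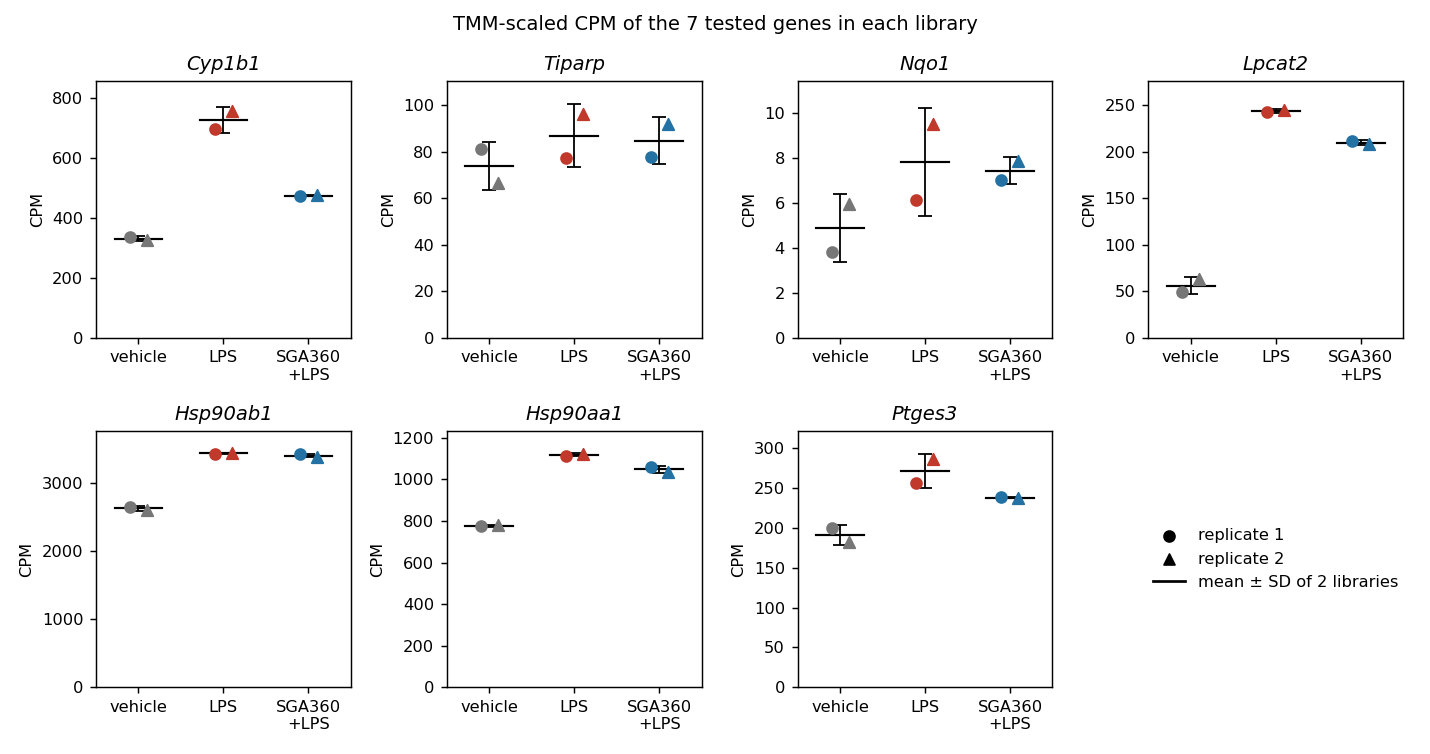
TMM-scaled CPM (y axis, from 0) of the 7 tested genes in vehicle, LPS and SGA360+LPS; circles and triangles are replicates 1 and 2, and bars the mean ± SD of 2 libraries. Cyp1b1 is at 335 and 325 CPM in vehicle, 694 and 756 with LPS and 472 and 475 with SGA360+LPS, while the Tiparp groups overlap.

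Cyp1b1 encodes a cytochrome P450 that oxidises aromatic hydrocarbons and steroids. Its row (NM_009994) spans chr17:79706953-79715041 on the minus strand in mm10. It stood at 335 and 325 CPM in the vehicle libraries, 694 and 756 CPM with LPS, and 472 and 475 CPM with SGA360+LPS. The 3 groups did not overlap: LPS was highest, vehicle lowest and SGA360+LPS between them. The log2 fold change with LPS was 1.14 (SE 0.07; edgeR adjusted p = 5.07e-07), the 564th largest of the 1820 called rises. From LPS to SGA360+LPS it fell by 0.61 on the log2 scale (SE 0.07; edgeR adjusted p = 0.00961; 95% interval -0.76 to -0.47), a 1.53-fold lower level. Against vehicle SGA360+LPS was still 1.43-fold higher (log2 fold change 0.52, SE 0.07; edgeR adjusted p = 0.000184). In mean CPM, 36.3% of the LPS increase was left with SGA360+LPS. The other 6 genes called lower in SGA360+LPS against LPS were Il1b, Ptgs2, Il1a, Ier3, Cxcl1 and Cxcl2. Their share left ran from 48.6% to 65.0%, with no test of the difference. On the log2 scale their changes ran from -0.62 (Cxcl2) to -1.04 (Il1b), no smaller a fall than that of Cyp1b1. Their vehicle means were 0.68 to 37.3 CPM, against 330 for Cyp1b1, and the share depends on that level.

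The fall of Cyp1b1 under SGA360 had the second smallest p-value of the 9389 genes and was as large without vehicle replicate 1 (-0.62). Its call was lost when LPS replicate 2 was left out (log2 fold change -0.55; edgeR adjusted p = 0.158), and likewise without either SGA360+LPS library (-0.61 and adjusted p = 0.328 without replicate 1, -0.62 and 0.264 without replicate 2). Over all alternatives the adjusted p ran from 2.6e-13 to 0.328. Cyp1b1 is also expressed by fibroblasts in many tissues. Of the 6 tested fibroblast markers 0 were called in that comparison and their median log2 fold change was 0.09. With LPS alone 1 of the 6, Col3a1, fell and 0 rose, and their median was -0.47, against -0.0084 over all tested genes. Of 8 tested mesothelial markers 3 fell with LPS and 0 were called under SGA360. In bulk RNA fewer cells of a type and less RNA per cell cannot be told apart, and the part of these cells in the Cyp1b1 values was not tested.

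**Figure D2:**
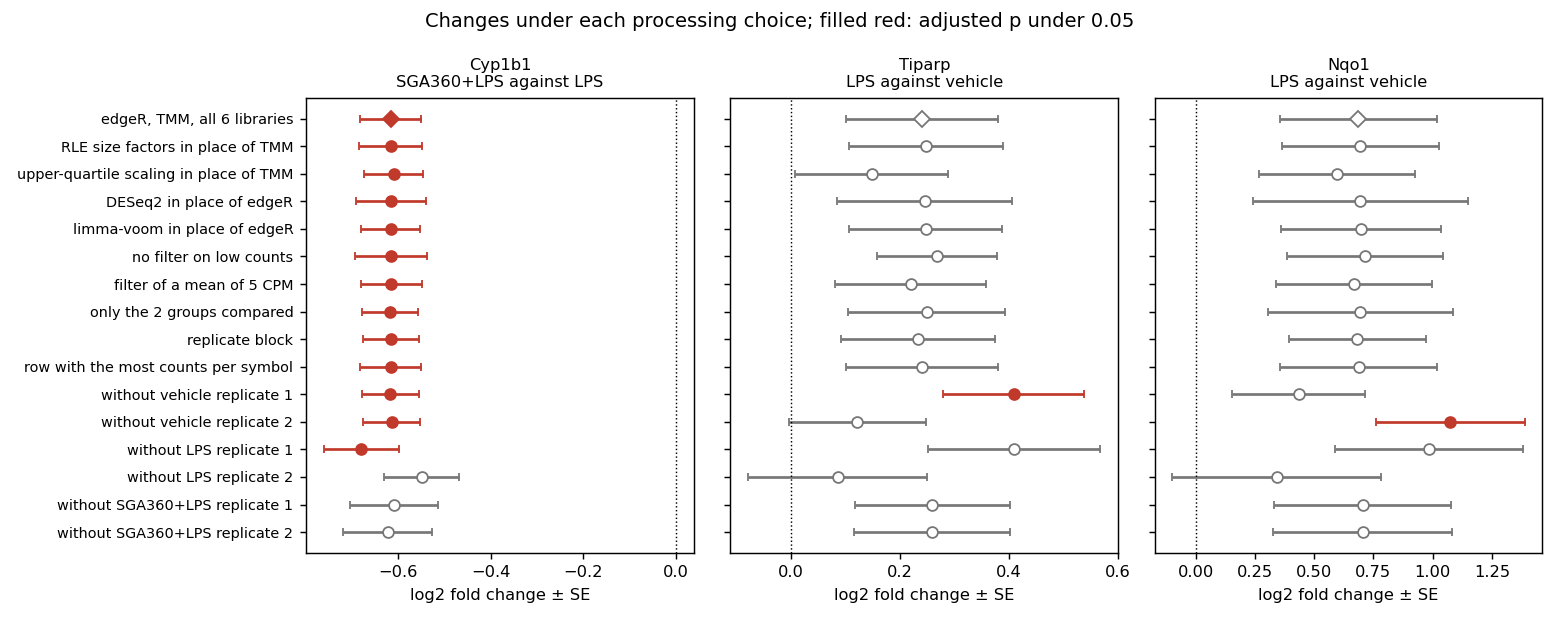
Log2 fold change ± SE (x axes) under each processing choice (y axis) for Cyp1b1 in SGA360+LPS against LPS and for Tiparp and Nqo1 in LPS against vehicle; filled red marks an adjusted p under 0.05. Cyp1b1 lies between -0.68 and -0.55 throughout, and its call is lost in 3 of the fits that leave out a library.

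Among P450 genes and their electron donors, 3 of 11 tested rose with LPS and 3 fell (median log2 fold change -0.06). This and the list counts that follow stand beside 19.4% of all tested genes called higher with LPS, 17% lower and 36.4% either way. Cyp27a1, the mitochondrial sterol 27-hydroxylase gene, fell by 2.36 on the log2 scale, from 24.1 ± 0.309 to 4.64 ± 1.48 CPM. Cyp7b1, an oxysterol hydroxylase gene, rose by 1.36, and Cyp4f16 fell by 1.00. Por, which encodes the reductase that supplies electrons to Cyp1b1 and other microsomal P450 enzymes, was among the 3 that fell, from 457 ± 32.7 to 289.5 ± 5.38 CPM (log2 fold change -0.66, SE 0.07; edgeR adjusted p = 4.25e-05); Por is named for its role, after its values were seen.

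Tiparp encodes an ADP-ribosyltransferase that acts on AHR as negative feedback. Its row (NM_178892) spans chr3:65528447-65555518 on the plus strand and overlaps 4931440P22Rik on the other strand, which had only 9 to 25 counts per library. Tiparp stood at 81.0 and 66.4 CPM in vehicle, 77.3 and 96.3 CPM with LPS, and 77.5 and 91.9 CPM with SGA360+LPS. All 3 groups overlapped. The log2 fold change was 0.24 with LPS (SE 0.14; edgeR adjusted p = 0.215; 95% interval -0.07 to 0.55) and -0.04 from LPS to SGA360+LPS (SE 0.14; adjusted p = 1.00; interval -0.35 to 0.27). Without vehicle replicate 1 the LPS change was 0.41 and was called (edgeR adjusted p = 0.0192), as was that of SGA360+LPS against vehicle (0.37; adjusted p = 0.0355).

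Of 12 other tested genes of the PARP family, 6 rose with LPS and 1 fell (median 0.48), which became 6 and 3 with upper-quartile scaling. Parp14, Parp9 and Parp12, which are interferon-inducible members, rose by 3.12, 2.04 and 1.55 on the log2 scale. Parp14 went from 106 ± 6.25 to 918 ± 98.4 CPM.

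Nqo1 encodes a quinone reductase induced through both AHR and the oxidative stress factor NRF2. Its row (NM_008706) spans chr8:107388225-107403205 on the minus strand. It was the least abundant tested member, with 34 and 57 counts in vehicle, 46 and 87 with LPS, and 55 and 70 with SGA360+LPS, which is 3.80 and 5.93, 6.12 and 9.51, and 6.98 and 7.84 CPM. Both treated groups lay above the vehicle libraries and overlapped each other. The LPS change was 0.69 on the log2 scale (SE 0.33; edgeR adjusted p = 0.138; 95% interval -0.05 to 1.43), and the change from LPS to SGA360+LPS was -0.08 (SE 0.32; adjusted p = 1.00; interval -0.81 to 0.64). That interval includes the change seen in Cyp1b1. Without vehicle replicate 2 the LPS change was 1.07 (edgeR adjusted p = 0.00863) and that of SGA360+LPS against vehicle 0.98 (adjusted p = 0.0155), and both were called.

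Of 19 other tested NRF2 targets 11 rose with LPS and 1 fell (median 0.74). Slc7a11, the cystine transporter gene, rose by 6.71 on the log2 scale, from 6.1 ± 1.67 to 645 ± 72.1 CPM. Srxn1, encoding sulfiredoxin, rose by 1.80, and Gclm, encoding a subunit of the enzyme for glutathione synthesis, by 1.43. Nfe2l2, which encodes NRF2 itself and is also an AHR target, rose by 0.74. It has 2 transcript rows and may be undercounted. So may Fth1, also among the 11 rises, with 2 rows and 0 to 38 counts per library. Txnrd1, Keap1 and Blvrb, which were tested and not called, have several rows too.

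Lpcat2 encodes an acyltransferase that makes platelet-activating factor (PAF) and remodels phospholipids in inflammatory cells. Its row (NM_173014) spans chr8:92855350-92919279 on the plus strand. It had 49.6 and 62.6 CPM in vehicle, 243 and 245 CPM with LPS, and 212 and 208 CPM with SGA360+LPS. The treated libraries were all far above vehicle, and those with SGA360 lay below those with LPS alone. The log2 fold change with LPS was 2.12 (SE 0.10; edgeR adjusted p = 1.22e-07), the 286th largest called rise and the largest among the members. From LPS to SGA360+LPS it was -0.22 (SE 0.09; unadjusted p = 0.0461, edgeR adjusted p = 1.00; 95% interval -0.43 to -0.0046), which did not pass the test over all genes, and 81.9% of the LPS increase was left. The intervals of Lpcat2 and Cyp1b1 for this change do not overlap; the difference between the genes was not tested. Capns2 lies within Lpcat2 on the same strand, with 0 counts in both vehicle libraries and 8 to 16 in the others, against 444 to 2242 for Lpcat2.

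Of 16 other tested genes of lysophospholipid acylation and PAF, 6 rose with LPS and 0 fell (median 0.29). By comparison, 19.4% of all tested genes rose, 17% fell and 36.4% were called either way. Ptafr, which encodes the PAF receptor, rose by 0.93 on the log2 scale, from 386 ± 27.2 to 734 ± 35.4 CPM, and the acyltransferase genes Agpat4 and Mboat1 by 1.07 and 0.78. Their number was 3 with upper-quartile scaling, with DESeq2, in the fit on both groups alone and in each fit that left out 1 of the 4 libraries given LPS, and 12 without vehicle replicate 2. Mboat1 was not called in any of the fits with 3.

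Among further AHR battery genes 6 of 18 could be tested, of which 2 rose and 1 fell with LPS (median -0.16). The amino acid transporter gene Slc7a5 rose by 0.88 and Nfe2l2 by 0.74, as given above, while Cdkn1b, the p27 cell cycle inhibitor gene, fell by 0.53; Cdkn1b was not called by DESeq2 (adjusted p = 0.0506) or without LPS replicate 1 (edgeR adjusted p = 0.121) or 2 (0.0761). In all, 7 of the 18 were at 0 in all 6 libraries, among them Cyp1a1 and Ahrr with 2 transcript rows each. For a gene with 1 row, a count of 0 allows at most 0.312 to 0.399 CPM (3 counts per library, counting error only).

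The receptor side began with Arnt, the nuclear partner, which could not be assessed. Its 2 rows (NM_001037737 and NM_009709, chr3:95434390-95497239, plus strand) held 1 count in all, in LPS replicate 2. Ahr, the receptor gene itself, was at 0 in every library and also has 2 rows. The 5639 symbols that have more than 1 row, of 24454, took 1.87% of the counts, so nothing on the expression of Arnt, Ahr, Ahrr or Cyp1a1 follows from these values.

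Of 10 tested genes for other partners of ARNT and coregulators of the AHR and ARNT pair, 4 fell with LPS and 1 rose (median -0.21). Epas1, encoding the hypoxia factor HIF-2 alpha that pairs with ARNT, fell by 1.25 on the log2 scale, from 337 ± 33.5 to 142 ± 2.41 CPM. Arnt2, the ARNT paralog gene, fell by 1.10, from 17.2 ± 1.78 to 7.96 ± 1.11 CPM. Nrip1, a nuclear receptor corepressor gene, rose by 1.01.

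Hsp90ab1 encodes the constitutive cytosolic HSP90 beta and Hsp90aa1 the inducible HSP90 alpha, which together hold AHR in a ligand-binding state. The row of Hsp90ab1 (NM_008302) spans chr17:45567778-45573261 and that of Hsp90aa1 (NM_010480) chr12:110691036-110696395, both on the minus strand. Hsp90ab1 had 2655 and 2609 CPM in vehicle, 3430 and 3448 with LPS, and 3430 and 3389 with SGA360+LPS. Hsp90aa1 had 774 and 780 CPM in vehicle, 1114 and 1123 with LPS, and 1060 and 1037 with SGA360+LPS. Both genes were higher in all 4 treated libraries than in vehicle, and the replicates lay close together. With LPS Hsp90ab1 rose by 0.39 (SE 0.05; edgeR adjusted p = 0.000334) and Hsp90aa1 by 0.53 on the log2 scale (SE 0.06; edgeR adjusted p = 5.66e-05). From LPS to SGA360+LPS the differences were -0.01 (95% interval -0.13 to 0.11) and -0.09 (-0.22 to 0.04), neither called. The genes are similar to each other and to their pseudogenes, and without the rule for shared reads the split between them is uncertain.

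Per transcript length Hsp90ab1 was the more abundant of the HSP90 pair in every library. The ratio of Hsp90ab1 to Hsp90aa1 in RPKM (CPM per kilobase of exon) was 3.90 and 3.80 in vehicle, 3.50 and 3.49 with LPS, and 3.68 and 3.71 with SGA360+LPS. The groups did not overlap, with LPS lowest and SGA360+LPS between LPS and vehicle. The difference in mean ratio was -0.355 for LPS against vehicle and 0.201 for SGA360+LPS against LPS, each with a two-sided exact permutation p of 0.333, the smallest that 2 libraries against 2 allow.

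**Figure D3:**
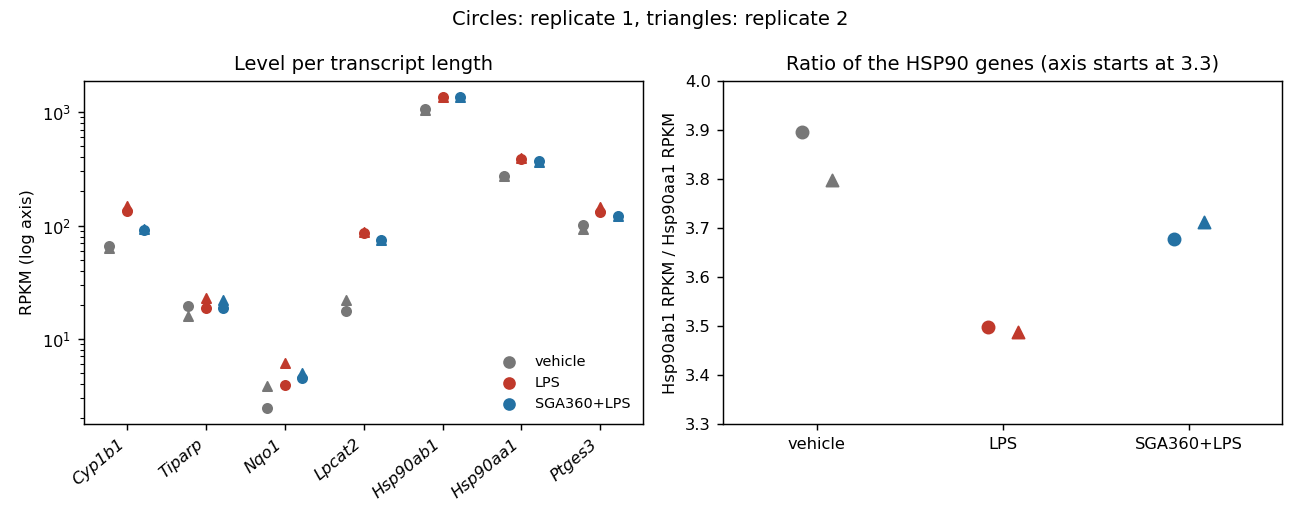
Left, RPKM on a log axis of the 7 tested genes by group; right, the ratio of Hsp90ab1 to Hsp90aa1 RPKM in each library, on an axis that starts at 3.3. The ratio is 3.80 to 3.90 in vehicle, 3.49 to 3.50 with LPS and 3.68 to 3.71 with SGA360+LPS.

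Ptges3 encodes p23, the HSP90 co-chaperone that stabilises the unliganded receptor complex and is also known as cytosolic prostaglandin E synthase. Its row (NM_019766) spans chr10:128058982-128077254 on the plus strand. It had 199 and 182 CPM in vehicle, 256 and 286 CPM with LPS, and 238 and 237 CPM with SGA360+LPS, so that the 3 groups were apart with SGA360+LPS in the middle. The log2 fold change was 0.51 with LPS (SE 0.08; edgeR adjusted p = 0.000621). From LPS to SGA360+LPS it was -0.19 (SE 0.08; unadjusted p = 0.0343, edgeR adjusted p = 1.00; 95% interval -0.37 to -0.02), which was not called. Against vehicle SGA360+LPS was higher by 0.32 (SE 0.08; edgeR adjusted p = 0.0114), a call lost without SGA360+LPS replicate 1 (adjusted p = 0.0667) or replicate 2 (0.0658).

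The other HSP90 genes and co-chaperones showed 6 rises and 1 fall among 15 tested with LPS (median 0.09). Stip1, which links HSP70 to HSP90, rose by 0.82 on the log2 scale, from 303 ± 14 to 534 ± 17.4 CPM, Hsf1, the heat shock factor gene, by 0.63 and the immunophilin gene Ppid by 0.43. Hsf1 and Ppid lost their calls without LPS replicate 1 (edgeR adjusted p = 0.0731 and 0.052) or 2 (0.0537 and 0.0808), and the list then had 4 and 2 calls. Cdc37, a kinase co-chaperone gene that is also in the receptor complex list, rose by 0.36. In that list 4 genes were tested, of which 2 rose with LPS and 0 fell (median 0.13). The second was the importin gene Kpna2 (0.22), which was not called with upper-quartile scaling (adjusted p = 0.177), in the fit on both groups alone (0.06), without LPS replicate 1 (0.0575) or 2 (0.203), and without either SGA360+LPS library (0.058 and 0.0585 for replicates 1 and 2).

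Of 11 other tested genes of prostaglandin E2 synthesis, breakdown and reception 2 rose and 3 fell with LPS (median 0.32). Ptges, encoding the inducible membrane prostaglandin E synthase, rose by 5.91 on the log2 scale, from 14.2 ± 0.735 to 853 ± 43.6 CPM, and Ptgs2, encoding COX-2, by 5.44. The receptor gene Ptger2 fell by 0.92, which was not called without LPS replicate 1 (edgeR adjusted p = 0.0552) or 2 (0.06). Ptgs2 was the only one of the 11 called in SGA360+LPS against LPS, lower by 0.97 (SE 0.08; edgeR adjusted p = 0.00223), and its call was lost without LPS replicate 2 (adjusted p = 0.1) and without SGA360+LPS replicate 1 (0.0923) or 2 (0.187).

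Over the 9 related lists in SGA360+LPS against LPS, edgeR called 0 genes apart from Ptgs2, and DESeq2 and limma-voom likewise called 1 gene, in the prostaglandin list. At an unadjusted p under 0.05, which 2.94% of all tested genes reached, there were 5 of 19 NRF2 targets, 1 of 15 HSP90 genes and co-chaperones and 1 of 11 P450 genes and partners. Of the 5 NRF2 targets, named after their values were seen, 4 had higher values with SGA360+LPS (Hmox1 0.13, Srxn1 0.18, Osgin1 0.51 and Ftl1 0.15 on the log2 scale) and 1 lower (Slc7a11, -0.28). The co-chaperone gene was Fkbp4 (0.16) and the P450 partner Por (0.26), both with higher values. There were 0 such genes among the tested genes of the AHR battery (6), receptor complex (4), ARNT partner (10), lysophospholipid (16) and PARP (12) lists. Lists this small can hold none at a share of 2.94%, so no lack of change follows.

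**Figure D4:**
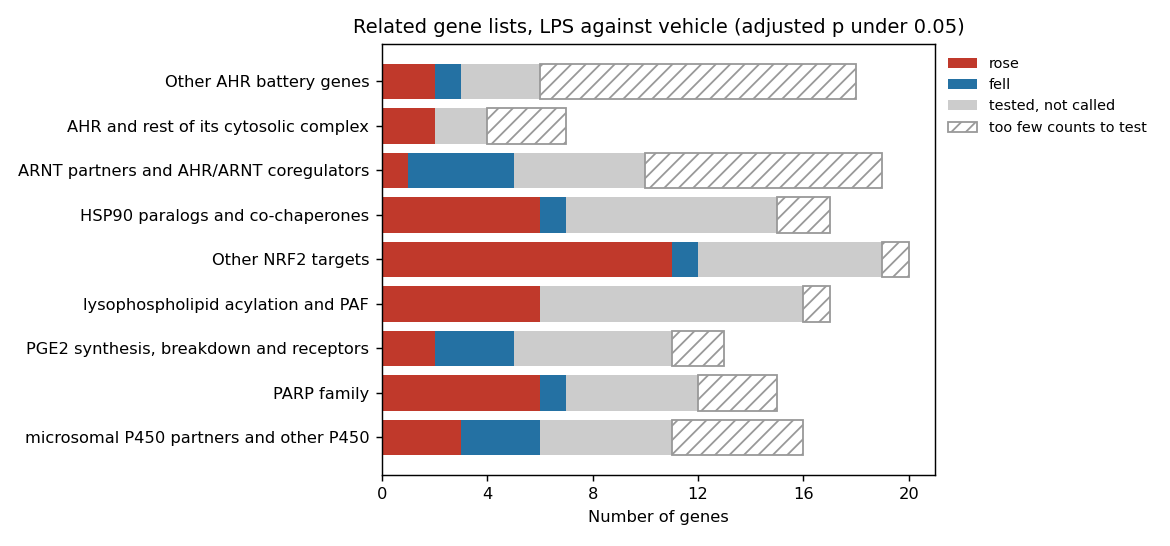
Numbers of genes (x axis) in 9 related lists that rose, fell, were tested and not called, or had too few counts to test in LPS against vehicle. The other NRF2 targets have the most rises, 11 of 19 tested, and the ARNT partners and coregulators the most falls, 4 of 10.

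The 3 comparisons side by side show how the 7 tested genes differed among themselves. With LPS all 7 estimates were above 0, from 0.24 (Tiparp) to 2.12 (Lpcat2), and in 6 of 7 the treated libraries lay wholly above vehicle and in 0 wholly below, where 33.1% of all tested genes lay above, 32.7% below and 65.9% either way. With SGA360+LPS against LPS all 7 estimates were below 0, from -0.61 (Cyp1b1) to -0.01 (Hsp90ab1); those of Tiparp and Nqo1 turned positive without LPS replicate 2 (0.14 and 0.28) or without SGA360+LPS replicate 1 (0.08 and 0.001). In 5 of the 7 the SGA360+LPS libraries lay wholly below those of LPS, and in 0 above, against 19.6% of all tested genes below, 19.9% above and 39.5% either way, and of the 7 only Cyp1b1 passed the test. Hsp90ab1 counts among the 5 by 3430.2 against 3430.3 CPM. The median of the 7 was -0.09, against 0.0012 over all genes. With SGA360+LPS against vehicle the estimates ran from 0.20 (Tiparp) to 1.90 (Lpcat2) with a median of 0.43, against -0.0066 over all genes, and 6 of 7 lay wholly above vehicle, where 32.9% of all tested genes lay above, 32% below and 64.9% either way.

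**Figure D5:**
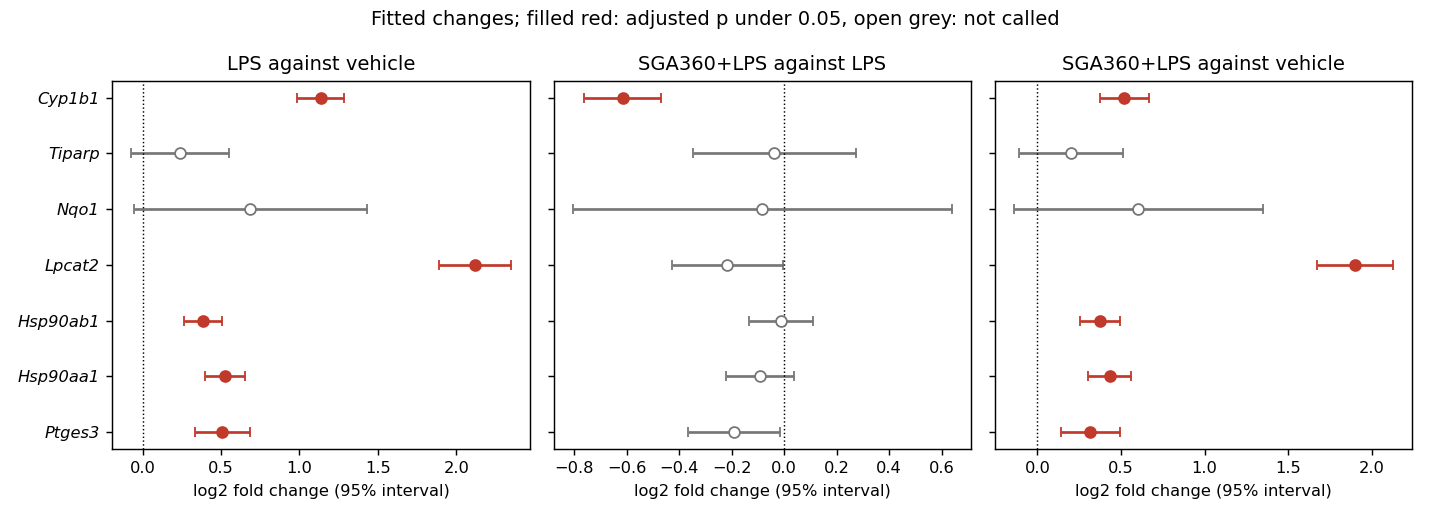
Log2 fold change with 95% interval (x axes) of the 7 tested genes (y axis) in the 3 comparisons; filled red marks an edgeR adjusted p under 0.05 and open grey no call. Of the genes, 5 are called in the comparisons with vehicle and Cyp1b1 alone in SGA360+LPS against LPS.

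In vehicle the order of levels per transcript length was Hsp90ab1 (1045 ± 13 RPKM), Hsp90aa1 (272 ± 1.5), Ptges3 (97.2 ± 6.14), Cyp1b1 (64.3 ± 1.47), Lpcat2 (19.9 ± 3.27), Tiparp (17.7 ± 2.49) and Nqo1 (3.12 ± 0.968; SD, n = 2 each). Lpcat2 and Tiparp overlapped between libraries and the other neighbours did not. With LPS Cyp1b1 (141 ± 8.58 RPKM) and Ptges3 (138 ± 10.6) overlapped, and Lpcat2 (86.7 ± 0.626) stood well above Tiparp (20.9 ± 3.24). With SGA360+LPS Ptges3 (121 ± 0.41 RPKM) was above Cyp1b1 (92.3 ± 0.346) and Lpcat2 (74.6 ± 0.948) below both. Hsp90ab1 ranked 65th of 8520 tested symbols with 1 row by vehicle RPKM, Cyp1b1 1150th and Nqo1 6642nd.

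The genes most like each called member over the 6 libraries were taken as those with the smallest Euclidean distance between mean-centred log2 CPM profiles, among 5380 candidates. Those nearest to Cyp1b1 were Ppp1cb (distance 0.35), Tmem68 (0.37) and Dnajc21 (0.38), whose log2 changes from LPS to SGA360+LPS were -0.34, -0.27 and -0.24, each smaller than that of Cyp1b1. Lpcat2 had closer neighbours in Adgrl2 (0.14), Lrrc8c (0.19) and Rab20 (0.20). Hsp90ab1 was closest to Pfn1 (0.049), Tox4 (0.053) and Lars (0.055), Hsp90aa1 to Dusp11 (0.047), Lpl (0.049) and Wdr43 (0.07), and Ptges3 to Serp1 (0.057), Slc41a2 (0.06) and Pank3 (0.077).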

How the data were processed

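Read counts, whole numbers for 34751 transcript rows with symbol, position and exon length, were deposited by the authors as 1 table. TopHat2 2.0.13, HTSeq 0.5.4p3 and mm10 are named, per the submitters' processing notes; strand setting, annotation version and the rule for shared reads were looked for (not given in the sources used here). Rows were summed per symbol. In R 4.3.3, edgeR 4.0.16 gave the filter (filterByExpr, minimum count 10), TMM scaling and the quasi-likelihood test (glmQLFit, glmQLFTest), with 1 fit for all 3 groups and 3 residual degrees of freedom, with Benjamini-Hochberg adjustment over 9389 genes and a threshold of 0.05. The size of a log2 fold change over the root of its F statistic was taken as SE, and 95% intervals use the moderated degrees of freedom. RPKM divide CPM by the deposited exon length. Positions are the table's start plus 1. Likeness used log2 of CPM plus 0.5 and genes with 1 row and at least 20 CPM.

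The members and gene lists were chosen with earlier results of these data known. From each list up to 3 called genes with the largest change and a mean of at least 5 CPM are named. One gene of the receptor complex list is not reported here. Lists are described by counts and medians, with no set test. Markers of macrophages, mesothelium, fibroblasts, B cells, T and NK cells, mast cells and neutrophils were summed per library. The alternatives were RLE or upper-quartile scaling, DESeq2 1.42.0, limma-voom (limma 3.58.1), no filter, a mean of 5 CPM, 2 groups alone, a replicate block, the largest row per symbol and leaving out each library. The fit was tested on counts simulated with the same spread between libraries for every gene and group. In the data the vehicle pair varied more than the treated pairs, which was not simulated.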

Additional observations from a re-analysis of the deposited data

How the results depend on the processing

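Over 15 alternatives, 302 of 315 values of the members kept direction and side of the threshold. The 5 members called with LPS remained 5 or 6 in number, and in SGA360+LPS against vehicle 4 to 6. In SGA360+LPS against LPS the number of members called ran from 0 to 1 when 1 library was left out; it was 0 without LPS replicate 2 and without either SGA360+LPS library, fits in which 0 genes of any kind were called and a lone library is assumed to vary like the other groups. There the change of Tiparp ran from -0.19 to 0.14 and that of Nqo1 from -0.36 to 0.28 with 1 library left out; the cause was not tested. Over all tested genes, the 3413 calls with LPS became 5494 without vehicle replicate 2, 2217 without LPS replicate 1 and 2091 without LPS replicate 2, and the 3107 calls in SGA360+LPS against vehicle became 5315 without vehicle replicate 2, 1831 without SGA360+LPS replicate 1 and 1872 without SGA360+LPS replicate 2. The 7 calls in SGA360+LPS against LPS became 11 with DESeq2, 17 with no filter, 12 in the fit on both groups alone, and 15, 16 and 3 without vehicle replicate 1, vehicle replicate 2 and LPS replicate 1. Upper-quartile scaling gave 42.4% higher among the LPS calls, against 53.3%, and 42.8% against 54.0% in SGA360+LPS against vehicle. With the replicate number as a block the members called were 5, 1 and 5 in the 3 comparisons, as without it. Over all tested genes the 7 calls in SGA360+LPS against LPS became 5 with that block, 6 with upper-quartile scaling and 9 with limma-voom. The deviations of same-numbered libraries correlated at -0.0052 (vehicle and LPS), 0.015 (vehicle and SGA360+LPS) and 0.177 (LPS and SGA360+LPS). The main fit has no block, as the labels do not say what the numbers mark. Whether the treated libraries share a replicate effect was not tested. Of 405 list counts under alternatives 376 stayed within 1.5 times the reported count, 25 were lower and 4 higher. Nqo1 had 34 to 87 counts per library, and Arnt, with 1 count over its rows, has no test.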
